A study of Mus musculus with 38 samples.

Results

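The integrated stress response and the unfolded protein response were followed through 10 genes: Atf4, Atf6, Ddit3, Trib3, Asns, Chac1, Hspa5, Hsp90b1, Xbp1 and Ern1. Members were the rows of the deposited RNA table carrying these symbols, and all 10 were present among its 21705 genes. The table holds 38 mouse RNAseq libraries in 10 groups. MYC cells, VM cells and VIM cells are tumour-derived kidney lines, each with 4 libraries from cells in doxycycline (Dox, which switches on the Tet-O-MYC transgene) and 4 from cells after its withdrawal. Tumours of the same 3 genotypes gave 3 libraries each and normal kidney gave 5.

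MYC animals and cells carry the inducible transgene alone, VM adds loss of both Vhl alleles, and VIM further adds loss of both Ink4a and Arf alleles at Cdkn2a. Cells without Dox keep all of these alleles, so that within a line the groups differ in Dox only. Transgene and Cre are driven by the Ksp (kidney cadherin) promoter, which is used in renal tubule cells, and Vhl was removed by a tamoxifen-inducible Cre, while the Ink4a/Arf loss is germline. Each genotype is represented by 1 line in culture, so a difference between lines cannot be told apart from one between individual tumours. Sample numbers in the titles run on from VM to VIM cells and start anew for MYC cells, and their meaning is not given. The median estimated depth was 25.6 and 24.8 M reads in MYC cells with and without Dox, against 14.3 to 18.8 M in the other cell groups. A difference between the MYC line and the others cannot be told apart from one between these runs of numbers. Plated cells grew for 24 h in 2 µg/ml Dox or in medium lacking it before RNA was taken, and nothing in the labels places the 4 libraries of a group in separate experiments, so that P values on cells cover the spread between these libraries, which may be technical. The tumour labels state continued Dox and the normal kidney labels state wild type with vehicle. No ages are given in the labels. The 3 MYC tumour libraries come from 2 mice (number 2917 once and number 2983 in 2 libraries). Lines and tumour libraries share mouse numbers in 2 genotypes, since 2983 is also the number of the MYC line and 3055, the mouse of VM tumour replicate 2, that of the VM line, which is named in the paper's text and not in the labels of the cells. Of the normal kidneys, 2 are titled B6 and 3 KT, and the meaning of KT is not given.

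Cells that run short of amino acids, or whose endoplasmic reticulum (ER) fills with unfolded protein, slow general translation by phosphorylating the initiation factor eIF2, while translation of the transcription factor ATF4 goes up. ATF4 in turn raises genes for amino acid supply (Asns, asparagine synthetase), a second transcription factor (Ddit3, known as CHOP), a pseudokinase that feeds back on the pathway (Trib3) and a glutathione-degrading enzyme (Chac1). In the ER membrane, IRE1 (Ern1) splices the mRNA of Xbp1 and ATF6 (Atf6) is released by cleavage, and both lead to more chaperone in the ER lumen, above all BiP (Hspa5) and GRP94 (Hsp90b1). Since ATF4, ATF6, IRE1 and XBP1 are switched at the level of translation, cleavage, phosphorylation or splicing, the RNA levels of their genes do not measure their activity.

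Promoter stretches of 5 members are shown because they hold an element known from ATF4 targets or from ER chaperone genes. RefSeq windows of 300 bases (build GRCm38.p6), reaching from 250 bases before the start site to 50 after it, were found for 9 of the 10 members. Atf6 had no entry. Both strands were searched for the ER stress response element (CCAAT, then any 9 bases, then CCACG), the C/EBP-ATF response element (TGATGNAA), the E-box CACGTG and the ATF6 site TGACGTGG. None of these motifs overlapped another in the member windows. The first was found in Hspa5 once and in Hsp90b1 on both strands, and it lies in 0.119% of the 32851 windows of the genome. TGATGNAA was found in Asns, Chac1 and Trib3, against 3.97% of all windows. The windows of Atf4, Ddit3, Xbp1 and Ern1 held neither. CACGTG and TGACGTGG, held by 7.15% and 0.676% of all windows, were in none of the 9 windows, as these letters and in this stretch. The matches are descriptions of the sequence and no binding was measured here. In the lines that follow each stretch reads 5′ to 3′ on the strand of the gene, capitals mark the motif, and positions count from −1 just before the start site and from 1 at it.
Hspa5: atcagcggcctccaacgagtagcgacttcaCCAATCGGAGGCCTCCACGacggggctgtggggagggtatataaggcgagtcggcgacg
Hsp90b1: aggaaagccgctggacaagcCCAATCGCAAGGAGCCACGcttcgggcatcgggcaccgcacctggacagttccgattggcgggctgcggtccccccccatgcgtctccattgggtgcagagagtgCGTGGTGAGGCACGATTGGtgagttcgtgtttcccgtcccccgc
Asns: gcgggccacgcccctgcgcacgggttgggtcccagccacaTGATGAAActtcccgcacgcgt
Chac1: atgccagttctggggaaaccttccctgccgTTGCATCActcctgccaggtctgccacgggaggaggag
Trib3: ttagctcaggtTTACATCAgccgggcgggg

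The Hspa5 stretch is chr2:34771995-34772083 on the plus strand, and its motif spans positions −65 to −47. The Hsp90b1 stretch is chr10:86705508-86705676 on the minus strand, with 1 motif reading forward from −212 to −194 and 1 reading in reverse from −107 to −89. The Asns stretch is chr6:7693211-7693272 on the minus strand with a forward motif from −23 to −16. The Chac1 stretch, chr2:119351019-119351086 on the plus strand, holds a reverse motif from −193 to −186. The Trib3 stretch, chr2:152344028-152344057 on the minus strand, lies just after the start site and holds a reverse motif from position 15 to 22.

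In mm9, the build the reads were aligned to, the GENCODE annotation places Atf4 at chr15:80085614-80087970, Atf6 at chr1:172634588-172797902 and Ddit3 at chr10:126727830-126733344. Trib3 lies at chr2:152163158-152169768, Asns at chr6:7625169-7643254, Chac1 at chr2:119176965-119180117 and Hspa5 at chr2:34627490-34632051. Hsp90b1 lies at chr10:86152954-86168254, Xbp1 at chr11:5420662-5425896 and Ern1 at chr11:106255964-106349166. All 10 are protein-coding, and each value covers reads assigned to the whole gene. Ddit3 overlaps Mars on the opposite strand, and Hsp90b1 overlaps 1810014B01Rik on the opposite strand and 2 unnamed gene models on its own. Use of strand in the assignment of reads is not given in the sources used here, so the values of Ddit3 and Hsp90b1 may include reads of these neighbours. Reads of spliced and unspliced Xbp1 are not separated in the table.

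The estimated depth ran from 8.22 to 36.6 M reads per library, at which 3 reads correspond to 1.16 to 5.65 units of normalised signal, and every member was above that floor in all 38 libraries. Vhl averaged 451 and 533 units in MYC cells with and without Dox, and its VM and VIM cell libraries lay between 8.32 and 38.8 units. Cdkn2a measured 24.9 to 40.8 units in VIM cells, against 3056 or more in the other cell libraries. In tissue it measured 30.1 to 95.5 units in VIM tumours (mean of 53.1), 59.3 to 2872 in MYC tumours and 3392 to 4347 in VM tumours. The kidneys held 0 to 3.80 units, so low Cdkn2a alone does not mark VIM tissue. VIM tumours held 219 to 312 units of Vhl and VM tumours 40.2 to 79.9. MYC tumours held 468 to 560 and the kidneys 612 to 772. The Myc row was lower in every library labelled with Dox (338 to 699 units) than in any without (1308 to 1868). Whether transgene reads enter that row is not given in the sources used here, so it checks nothing, and cells with and without Dox are named by their labels throughout. Ncl, a well-known MYC target picked after its values were seen, was higher with Dox in all 3 lines (log2 change 1.21, 1.95 and 2.08). Odc1, tested beside it, changed less (0.20, 0.87 and 1.44) and passed a log2 change of 1 in VIM cells only. The renal epithelial markers Cdh16, Pax8 and Epcam were present in every line (summed level 5589 to 17128), whereas 3 or 4 of 6 proximal tubule markers were at or under the floor in every library of each cell group. Of that list, Lrp2 (group means of 3407 to 5763 units) and Cubn (29.2 to 233 units) were present in every cell group. Among genes averaging 50 units or more, the median log2 change with Dox was −0.07 in MYC cells, −0.20 in VM cells and −0.11 in VIM cells under the scaling of the authors. It was 0.04, −0.00 and 0.03 after rescaling by trimmed means (TMM), so changes of that size are not distinguished from scaling. Of all calls, 23.0%, 23.8% and 31.6% were higher with Dox in the 3 lines, compared with 30.9%, 37.9% and 42.5% after TMM and 42.0%, 48.4% and 49.3% after quantile normalization.

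**Figure D1:**
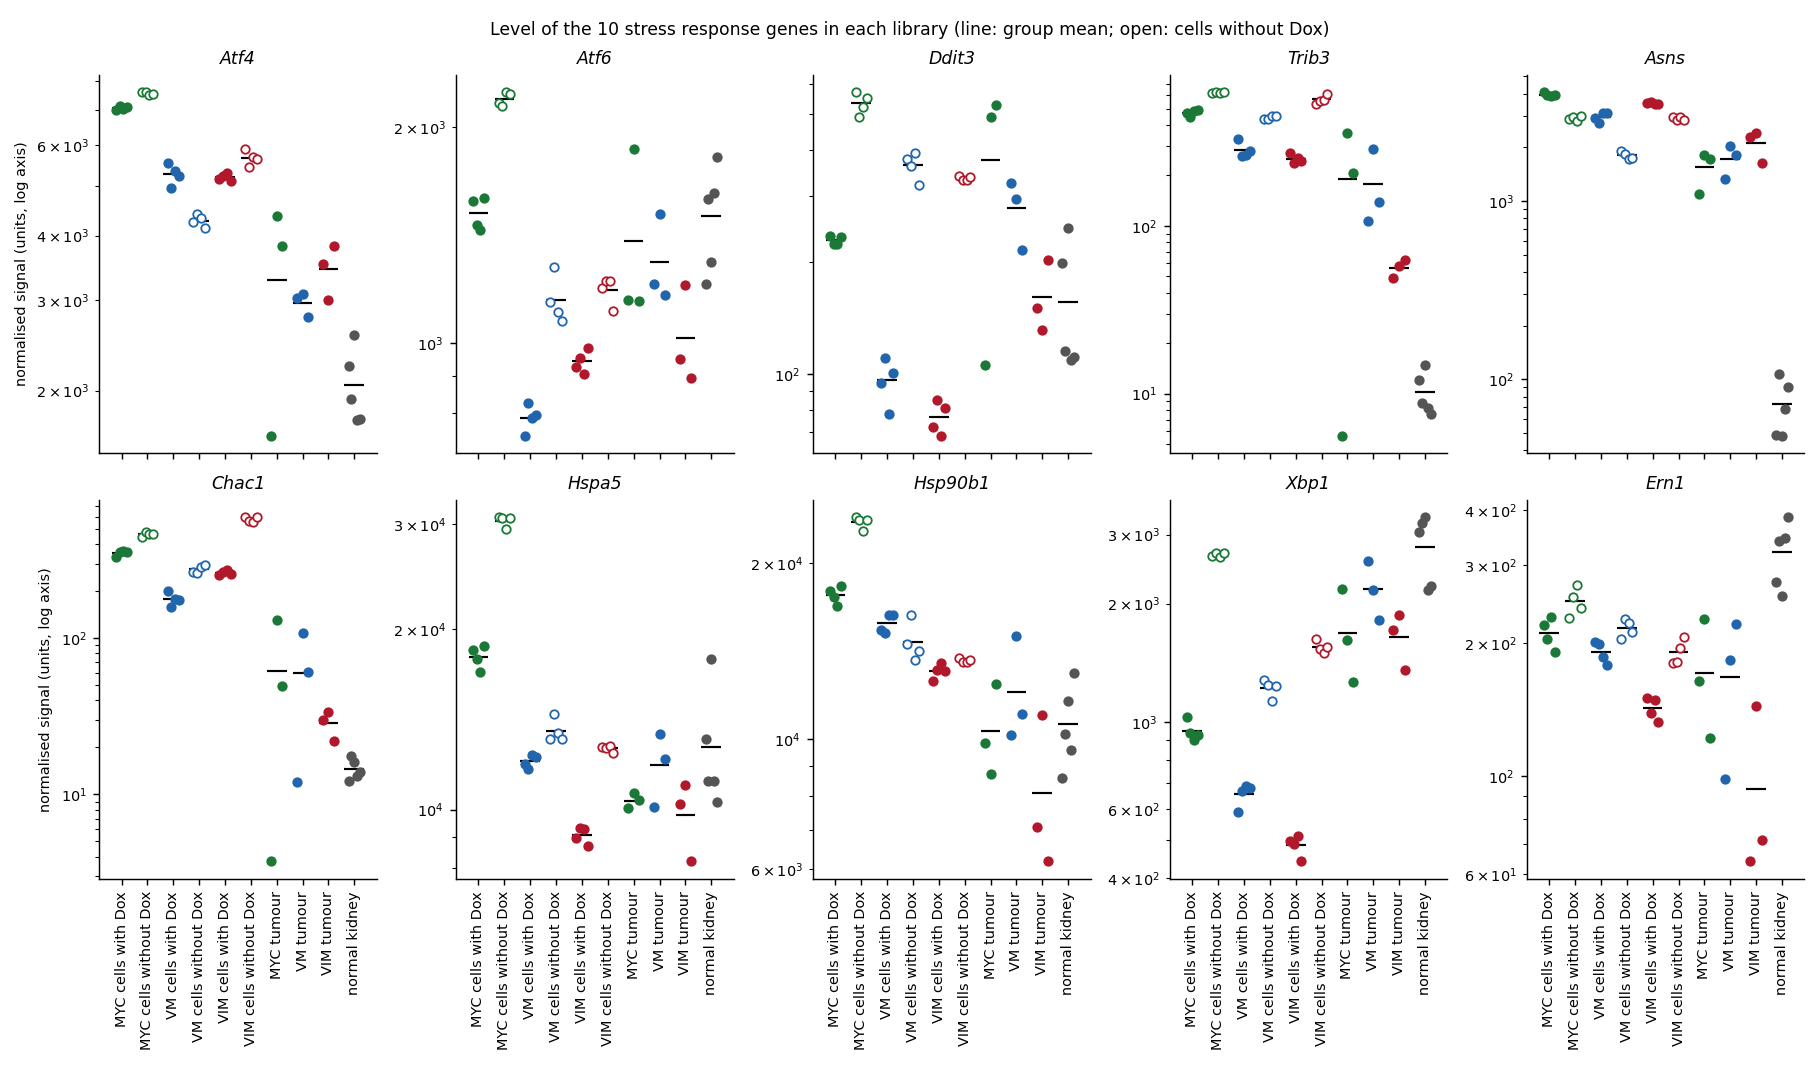
Normalised signal of each gene (vertical axis, units on a log scale) in every library of the 10 groups, 1 panel per gene; filled points are cells with Dox, tumours or kidneys, open points are cells without Dox, and a line marks the group mean. Asns sits at 48.2 to 107 units in the kidneys and at 1095 or more in all other libraries, and for Xbp1 the filled points of each line lie below its open points.

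Levels differed most between groups for Trib3, Asns and Chac1. Trib3 group means ran from 10.3 units in normal kidney to 627 in MYC cells without Dox, a 61.1-fold range. Asns ranged 54.5-fold (72.5 units in normal kidney to 3956 in MYC cells with Dox) and Chac1 39.6-fold (14.5 in normal kidney to 575 in VIM cells without Dox). Ddit3 ranged 6.96-fold and Xbp1 5.76-fold. For the remaining members (Atf4, Atf6, Hspa5, Hsp90b1 and Ern1) the highest group mean was 2.77 to 3.69 times the lowest. MYC cells without Dox had the highest mean of 6 members (Atf4, Atf6, Ddit3, Trib3, Hspa5 and Hsp90b1), and normal kidney had the highest of Xbp1 and Ern1 and the lowest of Atf4, Trib3, Asns and Chac1. With the groups ordered by their means, neighbouring groups overlapped in 3 of 9 pairs for Chac1, 4 for Atf4, Trib3 and Xbp1, 5 for Asns, 6 for Hspa5 and Hsp90b1, 7 for Atf6 and Ddit3 and 8 for Ern1. MYC cells without Dox stood above their next group without overlap for Atf4, Atf6, Trib3, Hspa5 and Hsp90b1. Overlap was not counted over all genes, so these counts and the separations given below only describe the members.

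With Dox, the transcription factor gene Ddit3 was lower in all 3 lines, Xbp1 was lower in MYC and VIM cells past the size threshold, and Asns was modestly higher. A member was called when its adjusted P was below 0.05 and its log2 change larger than 1 (limma on log2 of the signal plus 1, two-sided). Ddit3 and Xbp1 fell in MYC cells, Ddit3 in VM cells, and Ddit3, Trib3, Chac1 and Xbp1 in VIM cells. That is 2, 1 and 4 of the 10 members, where 14.99%, 18.9% and 16.6% of all genes tested were called lower, so the share was near or below that of all genes in MYC and VM cells. No member was called higher, against 4.49%, 5.92% and 7.67% of all genes, in the limma fits or in voom fits on recovered reads, and 1, 2 and 1 members were higher at an unadjusted P under 0.05. On the adjusted P alone 10, 8 and 9 of the 10 members passed, beside the 75.5%, 73.8% and 75.3% of all genes that did, so passing on P alone was common. How often libraries with and without Dox separate fully over all genes was not counted. The summed renal epithelial markers moved with Dox as well, being 10946 to 12476 units with and 16169 to 17128 without it in MYC cells. The sums were 5589 to 5716 and 12878 to 13290 in VM cells and 5593 to 5704 and 9674 to 10363 in VIM cells. Cdh16 and Pax8, which carry the sum, were lower with Dox in each line. Epcam averaged 55.4 units with and 44.2 without Dox in MYC cells, 210 and 215 in VM cells and 68.1 and 37.9 in VIM cells. The part of these markers in these results was not tested.

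Ddit3, the stress-induced transcription factor linked to cell death, measured 235, 223, 223 and 233 units in the 4 MYC libraries with Dox and 572, 491, 521 and 551 in those without. VM cells had 94.6, 111, 78.1 and 101 units with Dox and 378, 362, 391 and 322 without. VIM cells had 72.2, 85.3, 68.2 and 80.8 units with Dox and 341, 332, 332 and 338 without. The groups did not overlap in any line, and the libraries with Dox were uniformly the low ones. Its log2 change was −1.22 ± 0.05 (SE, n = 4 libraries per group, limma adjusted P = 1.39e-13) in MYC cells, −1.92 ± 0.10 (adjusted P = 1.40e-11) in VM cells and −2.12 ± 0.09 (adjusted P = 3.18e-15) in VIM cells, or 2.34-, 3.78- and 4.38-fold lower means.

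Xbp1, the transcription factor whose mRNA is spliced by IRE1, measured 1026, 939, 897 and 926 units in MYC cells with Dox and 2649, 2689.9, 2632 and 2685 without. In VM cells it measured 589, 665, 686 and 678 units with Dox and 1281, 1239.6, 1129 and 1234 without. In VIM cells it measured 497, 487, 513 and 441 units with Dox and 1621, 1532, 1494 and 1555 without. Again no library with Dox reached the level of one without. The log2 change was −1.49 ± 0.03 in MYC cells (adjusted P = 5.21e-17) and −1.68 ± 0.05 in VIM cells (adjusted P = 2.59e-18), and in VM cells it was −0.90 ± 0.06, with an adjusted P of 1.13e-10 but short of the size threshold.

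Trib3 and Chac1 differed between lines in the size of their change. Trib3 measured 271, 238, 253 and 242 units in VIM cells with Dox and 536, 557, 564 and 611 without, a log2 change of −1.17 ± 0.06 (adjusted P = 1.01e-13). Its change was −0.41 ± 0.04 in MYC cells (means of 472 and 627 units) and −0.64 ± 0.07 in VM cells (285 and 442 units), both under the size threshold. Chac1, which degrades glutathione, measured 253, 263, 272 and 256 units in VIM cells with Dox and 594, 562, 551 and 594 without. Its log2 change was −1.14 ± 0.05 (adjusted P = 2.93e-14), and −0.99 after TMM rescaling, which is under the size threshold. It was −0.40 ± 0.04 in MYC cells and −0.63 ± 0.09 in VM cells.

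Asns, which makes asparagine, was the member with the opposite sign in all 3 lines. It measured 4105, 3919.5, 3887 and 3911 units in MYC cells with Dox and 2884, 2949, 2811 and 2983 without. The values were 2934, 2749, 3113 and 3115 with Dox and 1919, 1846, 1730.2 and 1746 without in VM cells, and 3554, 3618, 3499 and 3506 with Dox and 2968, 2835, 2951 and 2864 without in VIM cells. Every library with Dox was above every one without in the same line. The log2 changes of 0.44 ± 0.03, 0.72 ± 0.05 and 0.29 ± 0.03 (adjusted P = 3.13e-11, 4.05e-10 and 1.46e-08) stayed under the size threshold. Atf4 itself, the upstream transcription factor, differed little, with log2 changes of −0.10 ± 0.02, 0.30 ± 0.04 and −0.12 ± 0.03 in MYC, VM and VIM cells. The MYC and VIM values turned slightly positive after TMM rescaling (0.02 in each).

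Among the ER sensors and chaperones, Hspa5 and Hsp90b1 had different values in the same lines. Hspa5, the lumenal chaperone BiP, measured 18452, 17823, 16955 and 18724 units in MYC cells with Dox and 30761, 30689.9, 29417 and 30643 without. The log2 change was −0.76 ± 0.03 in MYC cells (adjusted P = 3.53e-13) and −0.48 ± 0.03 in VIM cells (means of 9061 and 12648 units, adjusted P = 4.66e-12). In VM cells it was −0.17 ± 0.05 (12039.7 and 13513 units), which became 0.04 after TMM rescaling. Hsp90b1, the lumenal HSP90, had a log2 change of −0.41 ± 0.03 in MYC cells (17657 and 23501 units), a value that was 0.04 after quantile normalization. It was 0.11 ± 0.06 in VM cells (adjusted P = 0.0934) and −0.06 ± 0.03 in VIM cells (adjusted P = 0.0832), where it turned positive after TMM and quantile normalization (0.0836 and 0.0452). Atf6, the sensor released by cleavage, was lower in every line without passing the size threshold, with log2 changes of −0.53 ± 0.03, −0.54 ± 0.06 and −0.33 ± 0.04. Ern1, which encodes IRE1, had log2 changes of −0.24 ± 0.07, −0.18 ± 0.08 and −0.42 ± 0.09, and its libraries with and without Dox overlapped in MYC cells. The Ern1 value in VM cells turned positive under both other scalings (0.0212 with TMM and 0.127 with quantile normalization).

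**Figure D2:**
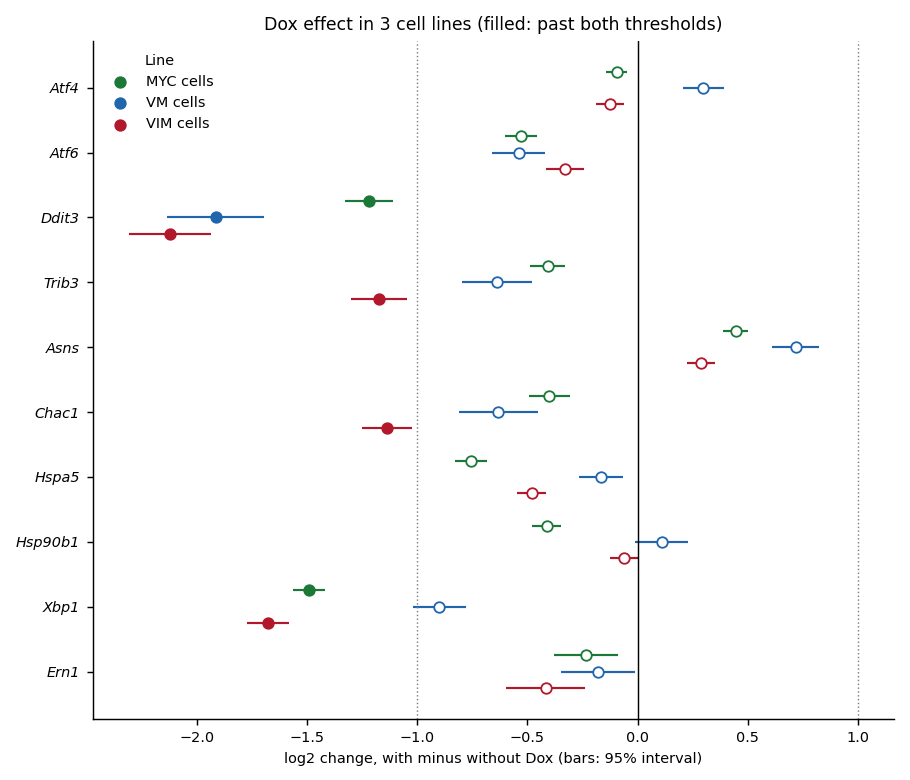
Log2 change of each gene with against without Dox (horizontal axis) in MYC, VM and VIM cells, n = 4 libraries per group; points are limma estimates, bars their 95% intervals, filled points passed both thresholds and dotted lines mark a log2 change of 1. Ddit3 lies beyond −1 in all lines, and Asns is positive in all lines between 0.29 and 0.72.

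Whether the Dox effect differed between lines was tested as an interaction. The adjusted P passed for 8 of 10 members in each of the 3 pairs of lines, against 46.2% of all genes for VM and MYC, 47.6% for VIM and MYC and 33.3% for VIM and VM. No member passed the size threshold as well in limma (8.78%, 9.06% and 6.05% of all genes did) or in voom. At an unadjusted P under 0.05 the member counts were 8, 8 and 9, beside 8224 of 15813, 8380 of 15630 and 6372 of 15180 genes. The fall of Ddit3 was larger than in MYC cells by 0.70 ± 0.12 log2 units in VM cells and 0.90 ± 0.09 in VIM cells (differences of −0.70 and −0.90, adjusted P = 7.10e-05 and 6.35e-08). Between VIM and VM cells the difference was −0.21 (95% interval −0.50 to 0.08). Chac1 and Trib3 had a more negative effect in VIM than in MYC cells, by −0.74 ± 0.06 and −0.76 ± 0.07 (adjusted P = 3.34e-09 and 5.40e-09). For Xbp1 the VM line stood apart, its effect being 0.59 ± 0.07 above that of MYC cells (adjusted P = 6.31e-07), whereas VIM cells were 0.78 ± 0.08 below VM cells (difference −0.78, adjusted P = 6.46e-08). For Hspa5 the effect in VM cells was 0.59 ± 0.06 above that in MYC cells (adjusted P = 4.32e-08), and the difference of 0.28 between VIM and MYC cells turned to −0.07 after quantile normalization.

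Between lines, the VM and VIM lines generally lay below the MYC line, whose libraries have their own run of sample numbers. With Dox, Ddit3 was the member called lower in VM than in MYC cells and again in VIM than in MYC cells, 1 of 10 each, against 18.1% and 18.3% of all genes called lower and 6.54% and 5.66% called higher. No member was called higher, and all 10 were lower in sign in both comparisons. Among genes averaging 50 units or more the median log2 difference was −0.17 and −0.14, and −0.02 and 0.01 after TMM. Differences of that size are therefore not distinguished from scaling. The Ddit3 log2 differences were −1.25 ± 0.10 (adjusted P = 4.36e-08) and −1.57 ± 0.08 (adjusted P = 4.54e-10). The former was −0.85 after quantile normalization, under the size threshold. Just short of the threshold were Chac1 in VM cells (−0.97 ± 0.07) and Hspa5 (−0.99 ± 0.04) and Xbp1 (−0.97 ± 0.05) in VIM cells. VIM and VM cells with Dox had no member called in either direction by limma or voom (9.69% of all genes were called higher and 9.45% lower). An unadjusted P under 0.05 was reached by 9 members, beside 9795 of the 14060 genes tested. The largest of the positive differences there was Chac1 at 0.55 ± 0.08.

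Without Dox, Hspa5 was called lower in VM and VIM cells than in MYC cells, Xbp1 in VM cells, and Chac1 was called higher in VIM than in VM cells. Hspa5 averaged 30378 ± 642 units (SD, n = 4) in MYC cells, 13513 ± 624 in VM cells and 12648 ± 144 in VIM cells, and Xbp1 averaged 2664 ± 28.1, 1221 ± 64.7 and 1550.3 ± 53.3 units. Both were called lower in VM cells (log2 difference −1.17 ± 0.04 and −1.13 ± 0.04, adjusted P = 1.22e-11 and 8.45e-12), and Hspa5 in VIM cells (−1.26 ± 0.03, adjusted P = 4.64e-15). After quantile normalization the Hspa5 difference in VM cells was −0.76, under the size threshold. These are 2 and 1 of 10 members, against 16.6% and 19.3% of all genes called lower, with no member called higher (8.36% and 6.88% of all genes) and 10 and 9 members lower in sign. The median over genes averaging 50 units or more was −0.08 and −0.16 here, and 0.02 and −0.01 after TMM. Below the threshold, Atf6 differed by −0.93 ± 0.05 and −0.88 ± 0.03 and Hsp90b1 by −0.68 ± 0.05 and −0.79 ± 0.03. Atf4 was also lower, by −0.82 ± 0.03 in VM cells (4275 against 7555 units) and −0.42 ± 0.03 in VIM cells (5661 units). Between VIM and VM cells, Chac1 was called higher in VIM cells (575 ± 22.1 against 277 ± 14.4 units, log2 difference 1.05 ± 0.06, adjusted P = 1.76e-10), 1 of 10 members against 9.21% of all genes, and no member was called lower by limma or voom (12.5% of all genes), with 1 lower at an unadjusted P under 0.05. Of all genes, 9998 of 14461 had an unadjusted P under 0.05 in either direction there. Asns was 0.68 ± 0.04 higher in VIM than in VM cells without Dox, under the size threshold.

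Tumours of each genotype held more Asns RNA than normal kidney, and Trib3 RNA was called higher in VM and VIM tumours. Ern1 was called lower in VIM tumours. In bulk tissue, fewer cells of a type and less RNA per cell cannot be told apart. The summed level of 6 proximal tubule markers was 248332 to 290316 units in the kidneys and 2871 to 17996 in the tumours. The 6 leukocyte markers summed to 585 to 908 units in the kidneys and 1799 to 13475 in the tumours. Lyz2 averaged 355 units in the kidneys and 4903, 3033 and 7586 in MYC, VM and VIM tumours, and Cd68 and Emr1 were also higher. In contrast, Ptprc averaged 308 units in the kidneys and 250, 73.7 and 188 in the tumours. Cd3e and Cd79a averaged 8.33 units or less in every tissue group. The 3 measured plasma cell markers (cells rich in ER) summed to 1253 to 5713 units in the kidneys and 7.22 to 1248 in the tumours. The part of these differences in the results that follow was not tested. The fits used animals as replicates, 2 for MYC tumours and 3 for VM and VIM tumours, against 5 kidneys.

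Asns was called higher in each genotype. Tumour libraries measured 1095, 1813 and 1727 units (MYC), 1326, 2047 and 1824 (VM) and 2299, 2419 and 1641 (VIM). The 5 kidneys measured 48.4, 107, 48.2, 68.4 and 91.1 units. The groups lay more than 10 times apart at their nearest values. The log2 changes were 4.32 ± 0.38, 4.61 ± 0.31 and 4.90 ± 0.31 (limma adjusted P = 7.07e-05, 2.15e-06 and 3.30e-06).

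Trib3 measured 106.5, 289 and 139 units in VM tumours and 48.96, 57.6 and 62.4 in VIM tumours, against 7.59 to 14.7 in the kidneys. Neither group overlapped the kidneys, and the log2 changes of 3.90 ± 0.44 (adjusted P = 5.66e-05) and 2.38 ± 0.37 (adjusted P = 0.000528) were called. In MYC tumours Trib3 measured 5.60 units in the library of mouse 2917 and 358 and 206 in those of mouse 2983. The change there, 1.95 ± 1.19 (adjusted P = 0.201), was not called.

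The MYC tumour of mouse 2917 was the low one in the other ATF4 branch members too. Chac1 measured 3.73 units in it and 131 and 49.4 in the 2983 libraries, Ddit3 105 units and 489 and 528, and Atf4 1633 units and 4372 and 3814. The same library had the highest proximal tubule sum of the tumours (17996 units, against 3763 and 3363 in the 2983 libraries) and 13242 units of leukocyte markers against 2352 and 2506. The 2983 libraries differed from each other as well. Replicate 2 held 2769 units of loop, distal tubule and collecting duct markers, 4262 of fibroblast markers and 1031 of plasma cell markers. Replicate 3 held 93.2, 480 and 36.7 units, and the 2917 library 41.0, 451 and 174. The part of these markers in the Trib3 and Chac1 levels of the MYC tumours was not tested. Without the 2917 library, 1 mouse remains in the group, whose spread is then assumed to be that of the other groups. Calls for MYC tumours then rose from 1 to 5 members, with log2 changes of 1.01 for Atf4, 1.78 for Ddit3, 4.64 for Trib3 and 2.41 for Chac1 beside Asns.

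Ern1, the IRE1 gene, was lower in the tumours than in the kidneys. It measured 64.0, 144 and 71.6 units in VIM tumours and 275, 340.1, 256, 345 and 385 in the kidneys, with a log2 change of −1.85 ± 0.30 (adjusted P = 0.000612). In MYC tumours (164, 227 and 121 units) and VM tumours (98.5, 182 and 221 units) the values were −0.93 ± 0.21 and −0.99 ± 0.28, just short of the size threshold. They passed it under 5 settings for each genotype, among them the 3 kidneys titled KT alone (−1.10 and −1.16). In total 1, 2 and 3 members were called for MYC, VM and VIM tumours. Called higher were 1, 2 and 2 of the 10, against 18.8%, 17.3% and 18.9% of all genes, and lower 0, 0 and 1, against 18.6%, 22.5% and 20.7%.

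The remaining members differed less. Atf4 had log2 changes of 0.35 ± 0.32, 0.55 ± 0.15 and 0.76 ± 0.17 in MYC, VM and VIM tumours, with group means of 3273, 2958 and 3449 units against 2047. Ddit3 had log2 changes of 0.65 ± 0.60, 0.89 ± 0.33 and 0.11 ± 0.34, and the VIM value turned to −0.48 against the 2 B6 kidneys alone. Chac1 had log2 changes of 0.35 ± 0.93, 1.52 ± 0.63 and 0.92 ± 0.36 (adjusted P = 0.778, 0.0653 and 0.0520). In VM tumours it measured 11.98, 107 and 60.4 units, and without the first of these its log2 change was 2.40 and called. Xbp1 had log2 changes of −0.64 ± 0.24, −0.35 ± 0.19 and −0.75 ± 0.20. Hspa5 (8198 to 13367 units in the tumours, 10285 to 17815 in the kidneys), Hsp90b1 (6177 to 15004 and 8582 to 12985) and Atf6 (894 to 1864 and 1208 to 1814) overlapped between tissues, apart from Atf6 in VIM tumours (894 to 1204). The log2 change of Hspa5 was −0.28 ± 0.25, −0.08 ± 0.21 and −0.36 ± 0.22, and each sign turned with quantile normalization (0.57, 0.64 and 0.16). Hsp90b1 had log2 changes of −0.05 ± 0.21, 0.18 ± 0.20 and −0.42 ± 0.23, where the MYC and VIM values became 0.82 and 0.04 with the same normalization. Atf6 had log2 changes of −0.20 ± 0.19, −0.21 ± 0.17 and −0.56 ± 0.18, and the MYC and VM values became 0.05 and 0.04 against the B6 kidneys alone.

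**Figure D3:**
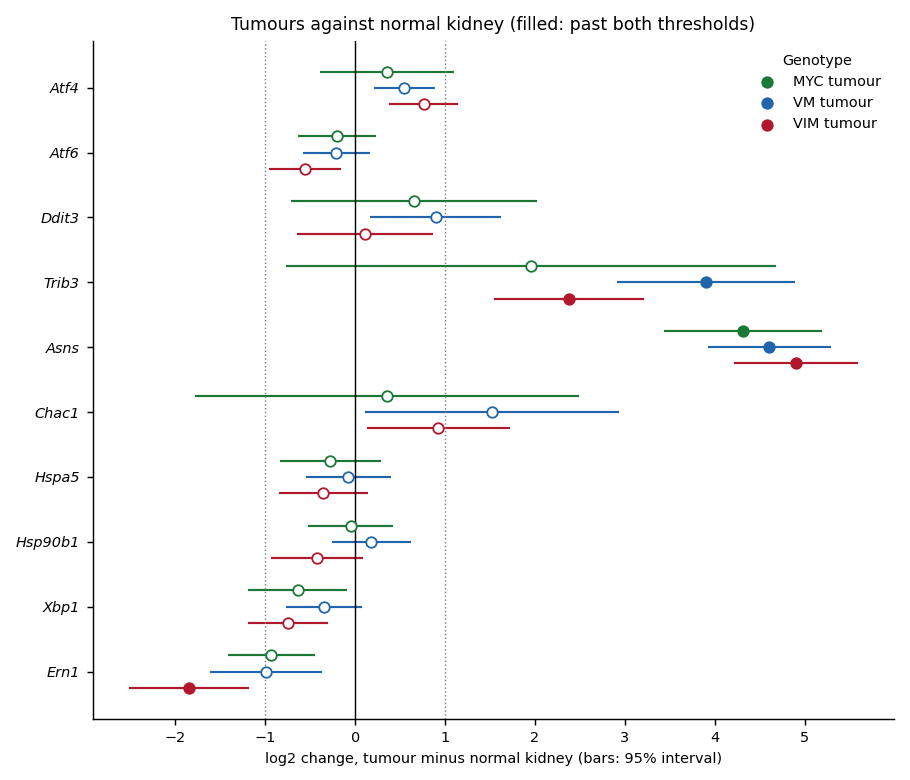
Log2 change of each gene in MYC, VM and VIM tumours against 5 normal kidneys (horizontal axis), with animals as replicates; points are limma estimates, bars their 95% intervals, filled points passed both thresholds and dotted lines mark a log2 change of 1. Asns lies between 4.32 and 4.90 in all genotypes, and the MYC bars for Trib3 and Chac1 are the widest.

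No difference between tumour genotypes was detected for these genes. No member was called in any of the 3 comparisons by limma or voom, where 0%, 0.00616% and 0.249% of all genes were called (VM against MYC, VIM against MYC, VIM against VM). VM against MYC tumours gave 0 calls over all genes in limma and in voom, with 2110 genes at an unadjusted P under 0.05, and with 2 MYC mice the intervals were wide. At an unadjusted P under 0.05 the member counts were 0, 0 and 1, beside 2110 of 16085, 2361 of 16246 and 1831 of 16096 genes. That member was Trib3, lower in VIM than in VM tumours (means of 56.3 and 178 units) by −1.52 ± 0.53 with an adjusted P of 0.327.

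The other genes of the pathway were counted in 6 lists. With Dox, 14.99%, 18.9% and 16.6% of all genes tested were called lower in MYC, VM and VIM cells. The shares called higher were 4.49%, 5.92% and 7.67%. PERK (Eif2ak3), the eIF2 kinase of the ER membrane, fell with Dox in all 3 lines, from 1872 to 708 units in MYC cells, 1276 to 469 in VM cells and 1182 to 475 in VIM cells (log2 change −1.40 ± 0.03, −1.44 ± 0.05 and −1.32 ± 0.04, adjusted P = 6.24e-17, 2.25e-14 and 2.82e-17). It was the largest fall among 8 eIF2 kinases and phosphatase regulators, of which 1, 3 and 1 were called lower and 0 higher. The further VM calls were Eif2ak2 and the phosphatase subunit Ppp1r15a. The median log2 change of this list was −0.36, −0.23 and −0.26, beside −0.13, −0.26 and −0.15 for all genes tested.

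Of the ATF4 pathway list of 22 other genes, those called higher with Dox were Psat1 (serine synthesis) in VM and VIM cells, Mthfd2 and Cth in VM cells and Phgdh in VIM cells. Psat1 rose from 1839 to 5778 units in VM cells and from 2367 to 6190 in VIM cells (log2 change 1.65 ± 0.04 and 1.39 ± 0.03, adjusted P = 1.62e-15 and 4.90e-20). It was 0.68 ± 0.02 in MYC cells, under the size threshold. Among the genes called lower, Fgf21 was the largest fall in MYC cells (−1.94 ± 0.17, 81.1 to 20.9 units) and Nupr1 in VM cells (−1.61 ± 0.11, 268 to 88.0 units). In VIM cells Fgf21 averaged 9.95 units without Dox and was at or under the level of 3 reads in all 4 libraries with it. The further falls were Gdf15 in MYC and VM cells and Atf5 and Nupr1 in VIM cells. The counts were 0 higher and 2 lower in MYC cells, 3 and 2 in VM cells and 2 and 3 in VIM cells. Beside them, 4.49%, 5.92% and 7.67% of all genes were called higher and 14.99%, 18.9% and 16.6% lower. The list medians were 0.04, 0.09 and −0.15.

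Of 13 other ER chaperones and folding enzymes 0 were called in any line by limma or voom. At an unadjusted P under 0.05 there were 13, 9 and 10 lower and 0, 4 and 3 higher. Such a P was common, being reached in either direction by 11605 of 15104, 10811 of 14319 and 10712 of 13998 genes. The chaperone list medians were −0.62, −0.31 and −0.32, and stayed negative after TMM (−0.51, −0.11 and −0.17) and quantile normalization (−0.28, −0.26 and −0.27). Of the ER-associated degradation and translocation genes (13 tested in MYC cells, 12 in the others), 2, 2 and 0 were called lower. That is near or below the 14.99%, 18.9% and 16.6% of all genes called lower. The called genes were Derl3 (25.5 to 6.21 units, log2 change −1.87 ± 0.20) and the co-chaperone Dnajb9 in MYC cells, and Dnajb9 and Os9 (−1.29 ± 0.05) in VM cells. Among the relatives and processing factors of the sensors, 7 of 8 were tested and 4, 3 and 4 were called lower. Creb3, Creb3l2 and Wfs1 were called lower in each line, and Creb3l1 in MYC and VIM cells. Creb3l2, an ER-bound transcription factor of the same kind as ATF6, showed the largest fall in VM cells (−2.13 ± 0.10) and VIM cells (−1.94 ± 0.08), and Creb3l1 in MYC cells (−1.70 ± 0.23, at 37.7 to 10.8 units). Of 4 genes linked to DDIT3, Bcl2l11 rose in MYC and VIM cells (1.04 in each) and was −0.20 in VM cells.

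**Figure D4:**
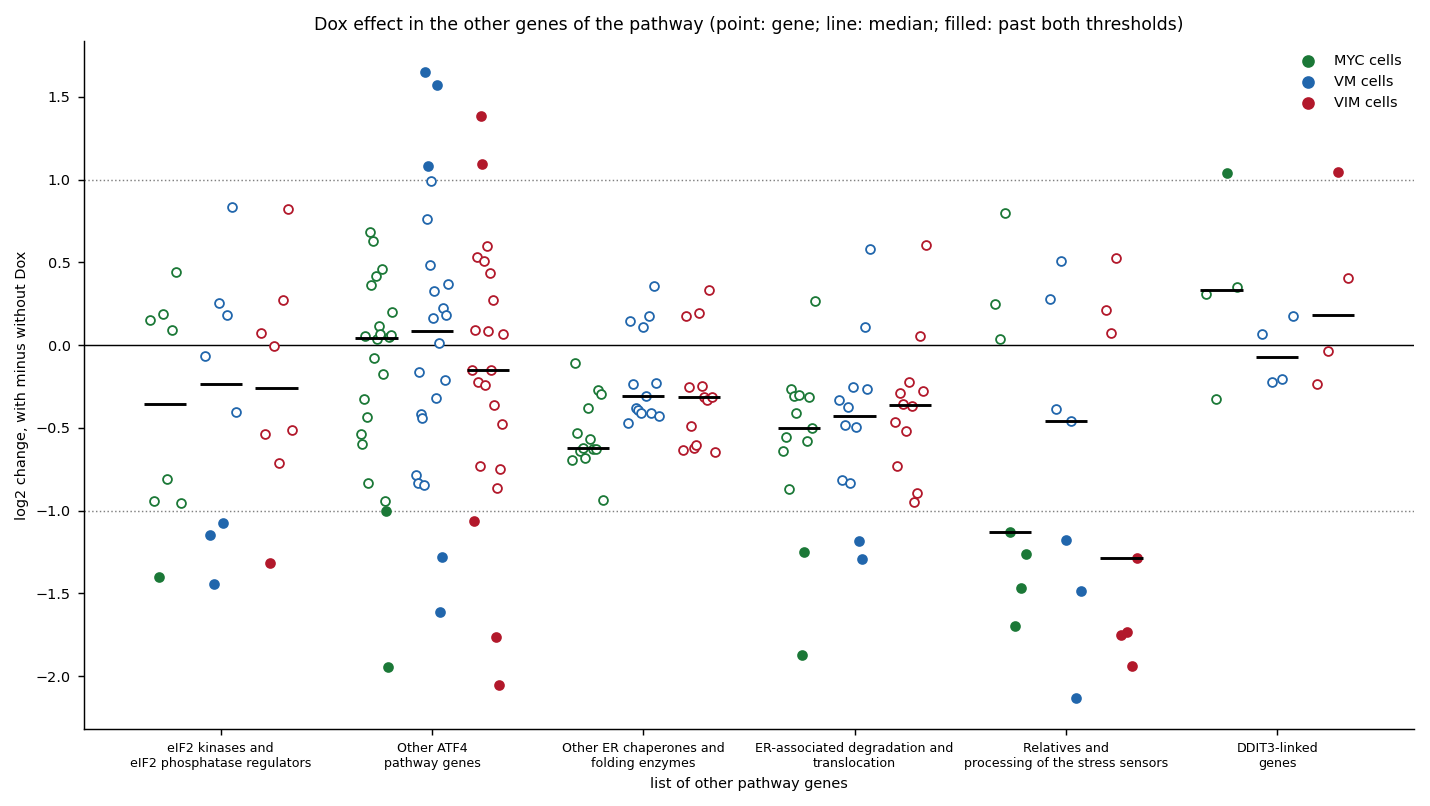
Log2 change with against without Dox (vertical axis) of every tested gene in 6 lists of other pathway genes, by line; points are genes, black lines list medians, filled points passed both thresholds and dotted lines mark a log2 change of 1. The ER chaperone list has no filled point and medians of −0.62, −0.31 and −0.32, while the ATF4 list has filled points on both sides of 0 in VM and VIM cells.

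Between lines, the ER chaperone list was lower in VM and VIM cells than in MYC cells. Without Dox 5 of 13 were called lower in each comparison and 0 higher, with list medians of −0.84 and −0.85 beside −0.10 and −0.20 for all genes, and with Dox 3 and 2 were called lower. Of all genes, 16.6% and 19.3% were called lower without Dox and 18.1% and 18.3% with it, so the counts with Dox were near that share. Herpud1 was the largest fall in all 4 comparisons. Of the 22 ATF4 pathway genes, 7 and 6 were called lower than in MYC cells without Dox and 1 and 2 higher. Of all genes, 8.36% and 6.88% were called higher there. Fgf21 was the largest fall in each, Ddit4 the largest rise in VM cells and Gdf15 in VIM cells.

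Against normal kidney, the ATF4 pathway list was mainly higher, with 13, 14 and 14 of 22 called higher in MYC, VM and VIM tumours and 3 called lower in each. Of all genes, 18.8%, 17.3% and 18.9% were called higher and 18.6%, 22.5% and 20.7% lower. List medians were 1.58, 1.62 and 1.88, beside 0.07, −0.05 and 0.01 for all genes tested. Without the MYC tumour of mouse 2917 the counts for MYC tumours were 15 higher and 2 lower. Phgdh, which opens serine synthesis, was the largest rise in each genotype (5229, 4544 and 2607 units against 42.6, log2 change 6.99 ± 0.41, 6.79 ± 0.34 and 5.99 ± 0.35). The largest fall was Cth, of cysteine synthesis, in MYC and VM tumours (−2.19 ± 0.35 and −2.43 ± 0.31) and the glycine transporter gene Slc6a9 in VIM tumours (−2.66 ± 0.68).

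The ER lists held few calls above normal kidney. The shares of all genes to set beside these counts were 18.8%, 17.3% and 18.9% called higher and 18.6%, 22.5% and 20.7% lower. Of 13 chaperones and folding enzymes 0, 0 and 1 were called higher (Sdf2l1 in VIM tumours, 1.12 ± 0.42) and 1 was called lower in each, Herpud1 (−1.47 ± 0.20, −1.82 ± 0.21 and −1.005 ± 0.20). The list medians of −0.35, −0.14 and −0.21 became −0.04, 0.53 and 0.08 after quantile normalization. Of 13 degradation and translocation genes 3, 5 and 5 were called lower, Edem1 most (−1.98 ± 0.20, −2.23 ± 0.17 and −2.13 ± 0.23), and 0 higher. Of the 8 genes of the eIF2 list 3, 3 and 2 were called higher, and 1 was called lower in each genotype. The latter was Dnajc3, the inhibitor of eIF2 kinases (−2.04 ± 0.15, −1.87 ± 0.15 and −1.97 ± 0.14). Ppp1r15a was the largest rise in MYC and VM tumours (1.45 ± 0.30 and 1.643 ± 0.23) and Eif2s1 in VIM tumours (1.69 ± 0.26). PERK (Eif2ak3) was called higher in MYC tumours (2273 against 816 units). It was not called in VM and VIM tumours (1183 and 1122 units). Creb3l2 was lower (−2.06 ± 0.22, −2.73 ± 0.34 and −3.49 ± 0.39) and Mbtps2, a protease that cuts ATF6, higher (1.12 ± 0.14, 1.30 ± 0.13 and 1.55 ± 0.14). Mbtps1, of the same list of processing factors, was not called in any genotype (3190, 2081 and 1804 units against 1816). Of the 4 genes linked to DDIT3, 2, 3 and 4 were called higher, with Bbc3 the largest rise (4.11 ± 0.49, 3.92 ± 0.47 and 3.70 ± 0.42).

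Over the 10 group means the members fell into partly separate patterns, given here as a description in which groups share lines, mice and depth. Trib3 and Chac1 followed each other most closely (Pearson r = 0.93 on the log2 scale), then Atf4 and Chac1 (0.91), Trib3 and Asns (0.86), Atf4 and Trib3 (0.86) and the chaperones Hspa5 and Hsp90b1 (0.82). Normal kidney had the lowest mean of both Trib3 and Asns (10.3 and 72.5 units). With Dox these genes changed in opposite directions in every line. Trib3 averaged 472, 285 and 251 units with Dox and 627, 442 and 567 without in MYC, VM and VIM cells. The Asns means were 3956, 2978 and 3544 units with Dox and 2907, 1810 and 2905 without. Asns and Xbp1 ran in opposite directions over the group means (−0.54). Among 13353 other genes with a group mean of at least 50 units, those closest to each of 5 members were Zfp358, Ammecr1l and Ptplad2 for Ddit3 (r = 0.975, 0.957 and 0.938), Dzip1l, Samd4 and 4930503L19Rik for Trib3 (0.993, 0.989 and 0.987) and Mthfd1l, Hn1 and Ccnf for Asns (0.991, 0.988 and 0.987). For Chac1 they were Stmn4, Serp2 and Pdlim7 (0.995, 0.991 and 0.990) and for Xbp1 Tmem66, BC096441 and Ccdc126 (0.967, 0.950 and 0.949).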

How the data were processed

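RNA of 24 cell line, 9 tumour and 5 normal kidney libraries was measured by 75-base paired RNAseq (TruSeq Stranded mRNA). The deposited values are a signal per gene. The authors aligned to mm9 with MapSplice, and the reads were handled with Picard 1.64, SAMtools and UBU 1.0, assigned to UCSC genes with RSEM and their values scaled to an upper quartile of 1000 per library. They are not counts and not divided by gene length, so levels are compared within a gene only.

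Groups follow the sample labels. Dividing totals by the most frequent low value, taken as the worth of 1 read, gave 8.22 to 36.6 M reads; 94.1% to 95.9% of values under 20 reads were then whole within 0.02. Floors of 3 reads cover counting error only.

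Each comparison was fitted with limma 3.58.1 (R 4.3.3) on log2(signal + 1), eBayes with a trend, over genes above 0 in at least 4 libraries (cells) or 2 animals (tissue, libraries of a mouse averaged). Fold changes are on this scale, which understates changes of low genes. P values were adjusted by Benjamini-Hochberg over all genes tested. Line by Dox interactions used the 16 libraries of both lines. Comparisons that share groups are not independent. In simulated data, 200 of 200 genes changed 4-fold were called in VM cells with Dox against without (14359 genes, 1 other called), and 150 of 200 in VM tumours against kidney (16527 genes, 6 others called).

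The members, lists and motifs were chosen with earlier results of these data known. Named are all members, the engineered genes, the largest called rise and fall of a list, and the 3 nearest genes of members spanning at least 2 log2 units; where 5 or fewer genes of a list were called, others were also named after their values were seen. Of the genes listed, Mzb1 was not used here. Alternatives were pseudocounts of 0.1 and 10, no filter, a mean of at least 10 units, TMM and quantile scaling, voom on recovered reads, all groups in 1 fit, a replicate block, MYC tumour libraries kept separate, kidneys of 1 title, and each library left out. The pathway counts without mouse 2917 were added after seeing the data. Figures were drawn with matplotlib 3.10.9.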

Additional observations from a re-analysis of the deposited data

Results flagged for a closer look

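Of 70 sets of 4 or 5 libraries (10 genes in 7 groups), 2 held a library whose gap to its neighbours was large for the spread of its group by Dixon's criterion, where chance alone flags about 1 set in 20. Asns measured 4105 units in MYC cells with Dox replicate 1, and the other 3 libraries measured 3887 to 3919.5. Hspa5 measured 29417 units in MYC cells without Dox replicate 3, and the others measured 30643 to 30761.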

How the results depend on the processing

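Counts of called members were 7 of 30 for Dox, 4 for lines without Dox, 0 for interactions and 0 for tumour genotypes, within 1.5 times under every alternative run. Calls between lines with Dox fell from 2 to 1 with quantile normalization, and calls for tumours against kidney rose from 6 to 10 without MYC tumour replicate 1 (range over libraries left out 6 to 10, and 2 to 3 for lines with Dox). With the replicate block in VM and VIM cells the counts stayed 7, 2, 4 and 0. Same-numbered libraries correlated at −0.0886 to 0.0909, so the numbers do not pair them. Of 1783 recomputed values of members, 1728 kept direction and side of the threshold, 28 newly passed it, 3 no longer passed and 24 changed sign, all of them uncalled. Sign changes with Dox were Atf4 in MYC and VIM cells (0.0190 and 0.0195, TMM), Hspa5 in VM cells (0.0353, TMM), Ern1 in VM cells (0.0212 TMM, 0.127 quantile), Hsp90b1 in MYC cells (0.0362, quantile) and VIM cells (0.0836 TMM, 0.0452 quantile), and the Hspa5 difference between VIM and MYC cells (−0.0729, quantile). Against kidney, quantile normalization gave Hspa5 0.57, 0.64 and 0.16 (MYC, VM, VIM) and Hsp90b1 0.82 (MYC) and 0.0434 (VIM). B6 kidneys alone gave Atf6 0.0483 (MYC) and 0.0404 (VM), Hsp90b1 0.0191 (MYC) and Ddit3 −0.48 (VIM). KT kidneys alone gave Hspa5 0.12 (VM). With each library left out in turn, Hsp90b1 ran from −0.18 to 0.0772 (MYC tumours), Hspa5 from −0.17 to 0.0518 (VM tumours) and Ddit3 from −0.0624 to 0.30 (VIM tumours). The cause of these changes was not tested. Tumour comparisons rest on 2 or 3 mice and 8.22 M reads at the lowest depth, and small differences there were not detectable.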
